A study of Homo sapiens with 8 samples.

Results

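The genes described here are the epidermal kallikreins KLK5, KLK6, KLK7, KLK8, KLK10, KLK11, KLK13 and KLK14, and SPINK5, which encodes their inhibitor LEKTI. They were chosen by name, as the kallikreins known from the outer epidermis together with that inhibitor, and they are 9 of the 34415 gene symbols counted. RNA came from HaCaT, an established human keratinocyte line that became immortal in culture. In 4 cultures the cells received a small interfering RNA (siRNA) against ETV4, a transcription factor of the ETS family (siETV4), and in 4 cultures a negative-control siRNA (siNC). All 8 cultures were grown at 35 mM glucose for 96 h, against 5.5 mM in the basal medium, and transfection lasted 48 h. The cells were at passages 21 to 33, and the submitters number the cultures as biological replicates. The sources used here do not give the siRNA sequences, a single line was used, and normal-glucose cultures were not analysed here. The comparison is between siRNAs, all under high glucose.

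Kallikreins are secreted serine proteases that are made as inactive zymogens and are encoded side by side in 1 gene cluster. In the outermost epidermis they activate each other in a cascade and cut the corneodesmosomes, the junctions that hold dead cells to the skin surface, so that cells are shed. LEKTI, the multidomain product of SPINK5, is released with them and blocks several of them, KLK5 and KLK7 among them, and its loss causes Netherton syndrome, in which skin proteases are overactive and the barrier fails.

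Each library held between 35057643 and 41657753 counts. Values are CPM, the counts scaled to a common library size with a correction for library composition, and log2 fold changes are siETV4 minus siNC. The siRNA's target was low in the siETV4 libraries. ETV4 stood at 3.10, 2.71, 1.83 and 2.80 CPM in siETV4 libraries 1 to 4, against 32.0, 29.7, 31.1 and 19.8 CPM in siNC libraries 1 to 4. The log2 fold change was -3.43 (SE 0.21, adjusted p = 4.64e-05, quasi-likelihood test of edgeR, Benjamini-Hochberg adjusted). All 8 keratinocyte markers were expressed. Of the markers of other cell types, COL1A2 and LUM of fibroblasts, MLANA and TYR of melanocytes, PTPRC of leukocytes and KDR of endothelial cells were at 0 counts in every library, while others of the same lists were present and are given further on. Libraries differed in how their values moved with the GC content of transcripts, taken from the longest transcript that GENCODE v29 gives for each gene. The rank correlation between a gene's deviation from its mean and its GC content was -0.64, 0.21, -0.57 and 0.02 in siETV4 libraries 1 to 4, and 0.55, 0.53, 0.63 and -0.60 in siNC libraries 1 to 4. The siNC replicate 4 library therefore stood apart from the other siNC libraries, and calls that turn on it are given with and without it. Without it, every siNC library has a higher trend than every siETV4 library. In that fit the siRNA and the GC trend cannot be told apart. Offsets, used further on, remove differences that follow GC content or length, whatever their source. They therefore do not separate the siRNA from the trend.

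Of the 9 genes, 7 were counted highly enough to be tested, and edgeR called 0 of the 7 at an adjusted p under 0.05. In all, 32 of the 13572 genes tested were called, a share of 0.236%. At an unadjusted p under 0.05 edgeR gave 2 of the 7, KLK7 and SPINK5, against 12.6% of all genes tested, and DESeq2 called 1 of the 7, KLK7, against 1.22% of the genes it tested. These were also the genes whose groups did not overlap, which was so for 6.55% of all genes tested. KLK7 was lower and SPINK5 higher in the siETV4 libraries. The other 5 tested kallikreins overlapped between the groups. The median log2 fold change was -0.18 over the 7 members and -0.19 over the 6 kallikreins, beside -0.01 over all genes tested. In bulk RNA, fewer cells that express a gene and less RNA per cell cannot be told apart.

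**Figure D1:**
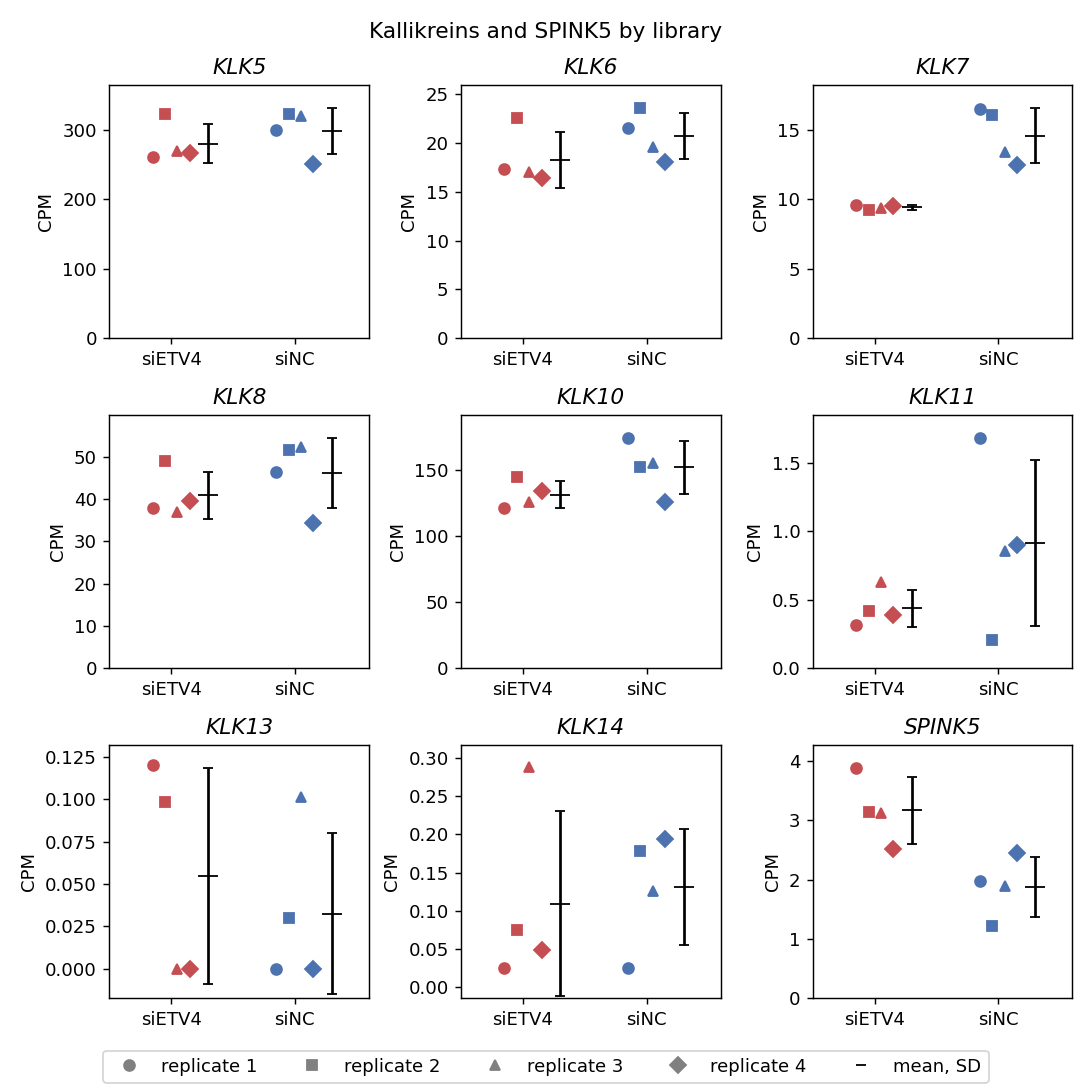
CPM (vertical axes, linear, a scale for each gene) of the 9 genes in each library, with siETV4 at the left and siNC at the right of each panel; marker shapes give the replicate number, and the black bars give the mean and SD of 4 libraries. The siETV4 points lie under every siNC point for KLK7 (9.21 to 9.57 against 12.5 to 16.5 CPM) and over every siNC point for SPINK5 (2.51 to 3.89 against 1.22 to 2.45 CPM).

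The stretches upstream of KLK7, SPINK5 and KLK5 are shown because KLK7 and SPINK5 were the members without overlap between the groups and KLK5 the most abundant. Each is the 250 bases before the gene's start in RefSeq (GRCh38.p14), read 5′ to 3′ on the gene's strand. Capitals mark GGAA, the core that ETS factors share, or TTCC, the same letters on the other strand.
KLK7, chr19:50984065-50984314, minus strand: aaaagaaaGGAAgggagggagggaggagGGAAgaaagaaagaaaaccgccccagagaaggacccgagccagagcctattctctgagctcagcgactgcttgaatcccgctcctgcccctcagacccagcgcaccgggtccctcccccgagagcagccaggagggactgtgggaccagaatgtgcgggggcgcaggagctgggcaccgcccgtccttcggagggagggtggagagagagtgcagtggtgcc
SPINK5, chr5:148063730-148063979, plus strand: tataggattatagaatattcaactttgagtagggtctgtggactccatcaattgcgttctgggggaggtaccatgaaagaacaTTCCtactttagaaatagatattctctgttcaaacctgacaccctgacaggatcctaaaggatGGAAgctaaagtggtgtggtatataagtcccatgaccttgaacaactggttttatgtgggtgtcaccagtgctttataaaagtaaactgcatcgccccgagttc
KLK5, chr19:50953039-50953288, minus strand: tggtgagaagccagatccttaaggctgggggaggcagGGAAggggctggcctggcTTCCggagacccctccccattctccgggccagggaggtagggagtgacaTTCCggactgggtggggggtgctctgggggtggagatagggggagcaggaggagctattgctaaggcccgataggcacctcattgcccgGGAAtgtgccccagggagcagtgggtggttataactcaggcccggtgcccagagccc
A promoter entry was found for 8 of the 9 genes. KLK7 and KLK14 had 3 entries each and KLK10, KLK11 and KLK13 had 2 each, and the entry with the outermost start was used. The stretches of KLK11 and KLK13, and most of that of KLK10, still lie inside the annotated span of the gene. GGAA, searched on both strands, was in all 8, with 2 to 8 occurrences each, but it is also in 92.8% of all 27305 RefSeq promoters of this length. The longer AGGAAG, which contains GGAA and is the form named for the PEA3 group that ETV4 belongs to, was found in 5 of the 8 (KLK6, KLK7, KLK10, KLK11 and KLK13) and in 28.6% of all promoters. In KLK7 its first base lies 243 bases before the start used. CCGGAAGT was in 0 of the 8 and in 3.64% of all promoters. TATAAA was found in SPINK5 alone of the 8, against 11.2% of all promoters, as 2 overlapping matches that begin 32 and 30 bases before the start. These are matches of letters, and no binding was measured.

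KLK7 is the chymotrypsin-like kallikrein of the stratum corneum, and corneodesmosin is among its substrates. It had 398, 374, 390 and 395 counts in siETV4 libraries 1 to 4, against 678, 543, 533 and 515 counts in siNC libraries 1 to 4. In CPM these were 9.57, 9.21, 9.38 and 9.53 in the siETV4 libraries and 16.5, 16.1, 13.4 and 12.5 in the siNC libraries. The siETV4 libraries lay close together and below the lowest siNC library. KLK7 averaged 9.42 ± 0.163 CPM in siETV4 libraries and 14.6 ± 2.0 CPM in siNC libraries (SD, n = 4 each). The log2 fold change was -0.64 (SE 0.13), that is 0.644 times the siNC level. The adjusted p from edgeR was 0.11, over the threshold, with an unadjusted p of 0.000577, the rank 71 of the 13572 genes.

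The call on KLK7 turned on the method and on 1 library, and its direction did not under the 19 alternatives tried. DESeq2 called it lower (log2 fold change -0.62, adjusted p = 0.00497). So did edgeR with offsets that remove each library's trend with GC content and length (log2 fold change -0.62, adjusted p = 0.0166), where 1.75% of all genes were called, and edgeR without siNC replicate 4 (log2 fold change -0.71, adjusted p = 0.00821), where 16.9% of all genes were called. With both the offsets and that omission the log2 fold change was -0.65 (adjusted p = 0.00635, edgeR), and 6.51% of genes were called. Over all 19 alternatives the log2 fold change lay between -0.71 and -0.49, and the adjusted p ranged between 0.00497 and 0.418 (edgeR, DESeq2 and limma-trend). The longest KLK7 transcript holds 49.3% GC, near the median of 48.4% of the tested genes. Among the libraries with a strongly negative GC trend, KLK7 stood at 9.57 and 9.38 CPM in siETV4 replicates 1 and 3 and at 12.5 CPM in siNC replicate 4. Among those with a positive trend, it stood at 9.21 CPM in siETV4 replicate 2 and at 16.5, 16.1 and 13.4 CPM in siNC replicates 1 to 3. One set holds 1 siNC library and the other 1 siETV4 library, and siETV4 replicate 4, at 9.53 CPM and a trend of 0.02, is in neither.

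KLK5 is the trypsin-like kallikrein that can activate itself and then other kallikreins, KLK7 among them, and it also cleaves the receptor PAR2. It had 10869, 13078, 11212 and 11053 counts in siETV4 libraries 1 to 4, against 12313, 10849, 12681 and 10331 counts in siNC libraries 1 to 4. The CPM values were 261.3, 322.1, 269.8 and 266.8 in siETV4 libraries, and 300.4, 322.6, 319.2 and 250.2 in siNC libraries. The groups overlapped, with the lowest value in siNC replicate 4 and 2 near-equal highest values in replicate 2 of each group. KLK5 averaged 280.0 ± 28.3 CPM in siETV4 libraries and 298.1 ± 33.4 CPM in siNC libraries (SD, n = 4 each), with a log2 fold change of -0.09 (SE 0.11, adjusted p = 0.72, edgeR). With the GC and length offsets its sign turned, to a log2 fold change of 0.03 (SE 0.05).

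KLK8 and KLK6 are trypsin-like kallikreins that were first studied in the brain and are also made in the upper epidermis. KLK8 stood at 37.8, 49.1, 37.0 and 39.5 CPM in siETV4 libraries, against 46.4, 51.6, 52.4 and 34.4 CPM in siNC libraries (log2 fold change -0.18, SE 0.15, adjusted p = 0.624, edgeR). KLK6 stood at 17.3, 22.6, 17.0 and 16.4 CPM in siETV4 libraries, against 21.5, 23.6, 19.6 and 18.1 CPM in siNC libraries (log2 fold change -0.18, SE 0.14, adjusted p = 0.61, edgeR). In both genes replicate 2 was the highest siETV4 library and replicate 4 the lowest siNC library. 

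KLK10, a kallikrein that many breast tumour lines silence, stood at 121.4, 144.3, 125.6 and 133.8 CPM in siETV4 libraries, against 174.2, 152.5, 154.9 and 125.7 CPM in siNC libraries. Only siNC replicate 4 lay within the siETV4 range. KLK10 averaged 131.2 ± 10.1 CPM in siETV4 libraries and 151.8 ± 19.9 CPM in siNC libraries (SD, n = 4 each), with a log2 fold change of -0.21 (SE 0.11, adjusted p = 0.442, edgeR). Without siNC replicate 4 it was called lower (log2 fold change -0.29, adjusted p = 0.0429, edgeR), and under no other alternative.

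KLK5, KLK6, KLK8 and KLK10 moved with the GC trend of the libraries. The 4 highest values of each were in siETV4 replicate 2 and siNC replicates 1 to 3, the libraries with a trend of 0.21 to 0.63, and the 4 lowest were in the libraries with a trend of -0.64 to 0.02. Their longest transcripts hold 58.2%, 56.6%, 57.6% and 54.6% GC, against a median of 48.4% over the tested genes. With the GC and length offsets their log2 fold changes were 0.03, -0.06, -0.05 and -0.09, each nearer to 0 than without. KLK7 did not share this order over all libraries, since siETV4 replicate 2 was its lowest. Within the siNC libraries, though, KLK7 was also lowest in replicate 4, at 12.5 CPM against 16.5, 16.1 and 13.4 CPM in replicates 1 to 3. The part of the GC trend in the values of these genes was not tested.

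**Figure D2:**
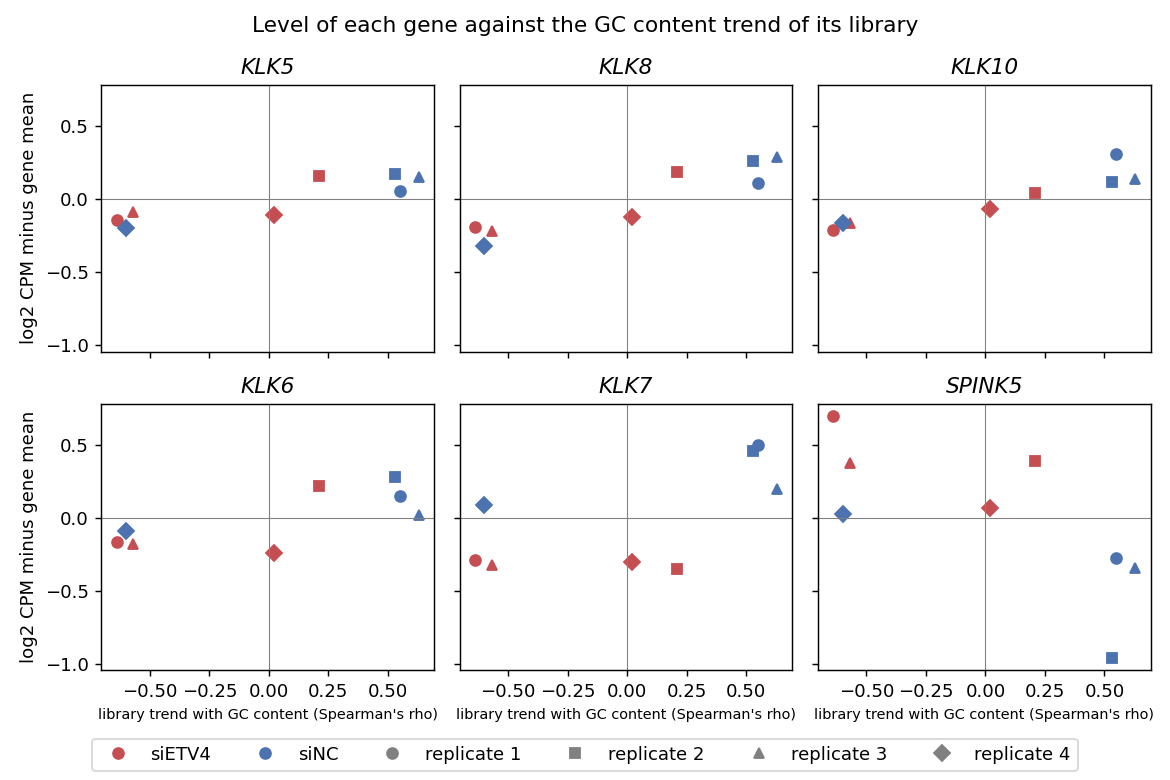
Log2 CPM of 6 members in each library, minus the gene's mean over 8 libraries (vertical axes), against the library's rank correlation between deviation and GC content (horizontal axes), with siETV4 and siNC in separate colours and marker shapes for the replicate number. KLK5, KLK8, KLK10 and KLK6 are highest in the 4 libraries with a trend of 0.21 to 0.63, while KLK7 is low in all 4 siETV4 libraries, at -0.35 to -0.29, at either end of the trend.

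KLK11, KLK13 and KLK14 were near the limit of detection. KLK11 had 13, 17, 26 and 16 counts in siETV4 libraries, against 69, 7, 34 and 37 counts in siNC libraries. The siNC libraries held both the highest and the lowest value. Its log2 fold change was -1.07 (SE 0.53, adjusted p = 0.425, edgeR) and lay between -1.39 and -0.59 when 1 library was left out. KLK14, a strongly trypsin-like kallikrein of the stratum corneum, had 1, 3, 12 and 2 counts in siETV4 libraries, against 1, 6, 5 and 8 counts in siNC libraries. KLK13 had 5, 4, 0 and 0 counts in siETV4 libraries, against 0, 1, 4 and 0 counts in siNC libraries. Neither was tested, and no difference was detectable at this depth, at which 3 counts, the limit a count of 0 allows, correspond to 0.0721 to 0.0892 CPM by library.

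SPINK5 was the only member on the inhibitor side and the only one of the 7 with a positive log2 fold change. It had 162, 128, 130 and 104 counts in siETV4 libraries 1 to 4, against 81, 41, 75 and 101 counts in siNC libraries 1 to 4. The CPM values were 3.89, 3.15, 3.13 and 2.51 in siETV4 libraries and 1.98, 1.22, 1.89 and 2.45 in siNC libraries. The groups did not overlap, but the lowest siETV4 value (replicate 4) and the highest siNC value (replicate 4) were close. SPINK5 averaged 3.17 ± 0.566 CPM in siETV4 libraries and 1.88 ± 0.506 CPM in siNC libraries (SD, n = 4 each). Its log2 fold change was 0.75 (SE 0.24), with an unadjusted p of 0.00991 and an adjusted p of 0.282 (edgeR). Without siNC replicate 4 it was called higher (log2 fold change 0.90, adjusted p = 0.0313, edgeR). With the GC and length offsets the log2 fold change was 0.59 (adjusted p = 0.204, edgeR), and with DESeq2 0.76 (adjusted p = 0.15). With both the offsets and the omission of siNC replicate 4 it was 0.64 (adjusted p = 0.138, edgeR), over the threshold. The longest SPINK5 transcript holds 43.6% GC, less than that of any kallikrein member. Among the libraries with a strongly negative GC trend, it stood at 3.89 and 3.13 CPM in siETV4 replicates 1 and 3 and at 2.45 CPM in siNC replicate 4. Among those with a positive trend, it stood at 3.15 CPM in siETV4 replicate 2 and at 1.98, 1.22 and 1.89 CPM in siNC replicates 1 to 3. As for KLK7, these sets hold 1 siNC and 1 siETV4 library, and siETV4 replicate 4, at 2.51 CPM, is in neither.

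**Figure D3:**
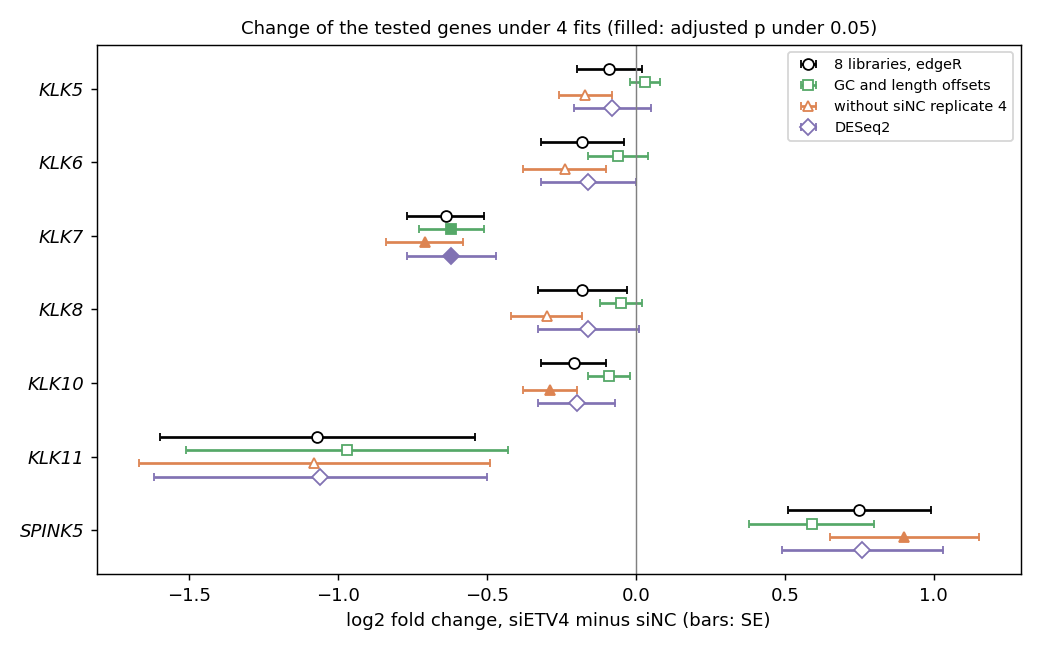
Log2 fold changes of the 7 tested members, siETV4 minus siNC, with their standard errors, in 4 fits: edgeR on 8 libraries, edgeR with GC and length offsets, edgeR without siNC replicate 4, and DESeq2. Filled markers have an adjusted p under 0.05. KLK7 lies between -0.71 and -0.62 and SPINK5 between 0.59 and 0.90 in these fits, while KLK5 lies near 0 and turns its sign with the offsets.

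Per length of transcript, KLK5 was by far the most abundant member. Levels in the next sentences are FPKM, counts scaled by transcript length and library total, as mean ± SD over all 8 libraries. KLK5 stood at 190.1 ± 15.2 FPKM, the rank 317 of all symbols. KLK8 (41.3 ± 5.69) and KLK10 (41.1 ± 4.45) came next and were not apart, since KLK8 was the higher in 4 of 8 libraries. KLK6 followed at 12.1 ± 1.41 FPKM and KLK7 at 5.58 ± 1.32 FPKM, each below the lowest library of the gene before it. SPINK5 stood at 0.642 ± 0.226 FPKM and KLK11 at 0.383 ± 0.268 FPKM. The ranges of SPINK5 and KLK11 overlapped, and SPINK5 was the higher in 6 of 8 libraries. KLK14 and KLK13 were lowest.

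The kallikrein cluster spans 265.1 kb on chromosome 19 (chr19:50819146-51084210, GRCh38.p14), with 15 KLK genes. Counts above 0 were found for 10 of them, and 5 (KLK2, KLK3, KLK4, KLK12 and KLK15) had 0 counts in every library. The 5 genes with a mean over 1 FPKM, KLK5, KLK6, KLK7, KLK8 and KLK10, were all members, and they are next to each other apart from the low KLK9. KLK7 lies between KLK6 and KLK8, whose groups overlapped. Of the other kallikreins, KLK9 averaged 0.460 ± 0.147 CPM in siETV4 libraries and 0.334 ± 0.291 CPM in siNC libraries (SD, n = 4 each; log2 fold change 0.44, SE 0.61), and KLK1, the tissue kallikrein that releases kinins, averaged 0.411 ± 0.198 CPM in siETV4 libraries and 0.396 ± 0.112 CPM in siNC libraries (SD, n = 4 each; log2 fold change 0.06, SE 0.46). Neither passed the test. ACP4, which flanks the cluster before KLK1, had 0 counts in every library. CTU1, which flanks it after KLK14, averaged 13.0 CPM in siETV4 libraries and 14.5 CPM in siNC libraries (adjusted p = 0.637, edgeR). The members on chromosome 19 lie on the minus strand, and where reads were not counted by strand, those of overlapping antisense transcripts cannot be told apart from theirs. The sources used here do not give the strand setting. LOC105372442, the counted transcript that overlaps KLK5 and KLK6, had 4 counts over all libraries, and LOC105372441 elsewhere in the cluster had 1 count. GENCODE v29 also places antisense transcripts over KLK5, KLK6, KLK7, KLK8 and KLK10, AC011483.1 over KLK7 among them. These were not counted under their GENCODE names, and their level is not known. The same holds for AC011473.4, a protein-coding gene that overlaps KLK8 on its own strand, and for AC011483.3, which overlaps KLK6 on its own strand. Beside SPINK5 on chromosome 5, C5orf46 had 66 counts over all libraries and SPINK14 had 0.

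**Figure D4:**
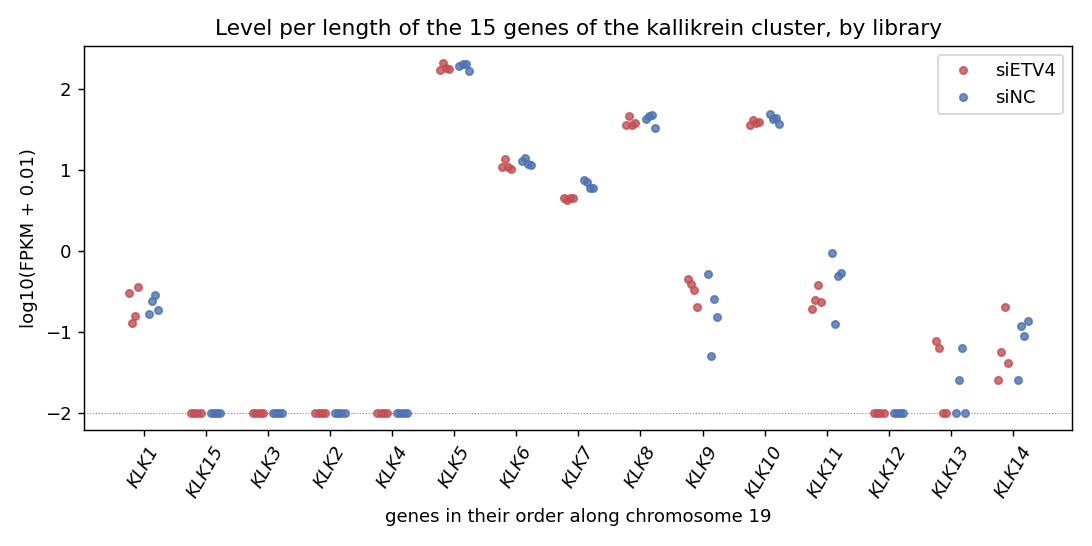
Level of the 15 KLK genes, as log10 of the deposited FPKM plus 0.01 (vertical axis), in their order on chromosome 19 (horizontal axis), by library, with siETV4 and siNC libraries in separate colours. The 5 genes over 1 FPKM are KLK5, KLK6, KLK7, KLK8 and KLK10, and KLK2, KLK3, KLK4, KLK12 and KLK15 are at 0 in every library.

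Summed over the cluster, kallikrein transcripts stood at 282.1 ± 23.0 FPKM in siETV4 libraries and 300.0 ± 27.9 FPKM in siNC libraries (SD, n = 4 each), and the groups overlapped. KLK5 made up 66.3 ± 0.532% of that sum in siETV4 libraries and 64.4 ± 1.16% in siNC libraries. KLK7 made up 1.34 to 1.72% in siETV4 libraries and 1.92 to 2.44% in siNC libraries. The composition was otherwise close: KLK8 held 14.0 ± 0.538% in siETV4 libraries and 14.3 ± 1.06% in siNC libraries, and KLK10 held 13.8 ± 0.58% in siETV4 libraries and 14.5 ± 1.14% in siNC libraries. Set against the inhibitor, the ratio of KLK7 to SPINK5 in FPKM was 4.53 to 7.0 in siETV4 libraries and 9.4 to 24.4 in siNC libraries. The ratio of KLK5 to SPINK5 was 175.0 to 277.2 in siETV4 libraries and 266.8 to 690.2 in siNC libraries, which overlapped. These are ratios of RNA, and neither protein nor protease activity was measured.

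A ratio between genes of the same library needs no scaling between libraries. It can still carry the GC trend where its genes differ in GC content, as KLK5 (58.2%), KLK7 (49.3%) and SPINK5 (43.6%) do. The log2 ratio of counts was compared between the groups for all 21 pairs of tested members. The test was an exact two-sided permutation test whose smallest possible p is 0.0286. That p was reached by 6 pairs, and the lowest p after Benjamini-Hochberg adjustment over the pairs was 0.1. At that smallest p, at least 13 of the 21 pairs would have to reach it for any to pass at an adjusted p under 0.05, so the adjusted values say little about the single pairs. KLK7 was part of 5 of those pairs. The log2 ratio of KLK5 to KLK7 was 4.89 ± 0.16 in siETV4 libraries and 4.35 ± 0.16 in siNC libraries (SD, n = 4 each), a difference of 0.54 that stayed between 0.46 and 0.61 when 1 library was left out. The log2 ratio of KLK7 to SPINK5 was 1.59 ± 0.26 in siETV4 libraries and 2.99 ± 0.57 in siNC libraries (SD, n = 4 each), a difference of -1.40, or -1.62 to -1.16 with 1 library left out. These pairs were named after their values were seen. KLK7 and SPINK5 each separated the groups, in opposite directions, so their ratio was bound to separate them too and adds no support. The 5 pairs with KLK7 share its values and are not independent of each other. Among KLK5, KLK6, KLK8 and KLK10 the 6 log2 ratios differed by -0.01 to 0.11 between the groups, and the groups overlapped in each.

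Across the 8 libraries, the deviations of KLK5 and KLK8 from their means had a Pearson correlation of 0.98, and those of KLK7 and SPINK5 of -0.86. These are descriptions over libraries that share the siRNA groups and the GC trend. Among 10972 genes whose log2 CPM averaged 1 or more, KLK5 was most like COPE (0.997), CYC1 and RPL8, and KLK8 most like PKM (0.997), BCKDK and EEF1G. KLK7 was most like SAMD10 (0.967), MORN4 and ZNF746. KLK6 was most like DPM3 (0.978), MRPL24 and TMEM219, KLK10 like BRAT1 (0.996), ARHGEF1 and KLHL26, and KLK11 like FGFR3 (0.975), COL1A1 and MCOLN1. SPINK5 was most like ASF1A (0.987), CFI, which encodes complement factor I, and SMN1, whose reads may be shared with a near-identical copy.

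Around the kallikreins, 139 further genes of the pathway were listed, of which 86 were tested and 1 was called, PI3. The counts that follow for each list are to be read against the shares of all genes tested, 0.236% called by edgeR, 12.6% with an unadjusted p under 0.05, 1.22% called by DESeq2, and 16.9% called by edgeR without siNC replicate 4. PI3 encodes elafin, an inhibitor of elastase that keratinocytes secrete. PI3 stood at 21.4, 21.2, 26.3 and 26.2 CPM in siETV4 libraries, against 14.0, 10.6, 12.9 and 10.5 CPM in siNC libraries, and the groups were well apart. It rose by a log2 fold change of 0.99 (SE 0.15, adjusted p = 0.0216, edgeR). The call held in 3 of the 8 fits that left out 1 library (adjusted p between 0.00525 and 0.112, edgeR; log2 fold change 0.93 to 1.07).

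Among the 13 tested protease inhibitors of the epidermis, 1 rose and 0 fell, with a median log2 fold change of 0.03, and edgeR gave an unadjusted p under 0.05 for 6, against 12.6% of all genes, and DESeq2 called 2, against 1.22%. Without siNC replicate 4, 3 were called higher and 2 lower, against 16.9% of all genes. With the GC and length offsets on all 8 libraries, 2 were called higher and 0 lower, against 1.75% of all genes. SERPINB2 was called higher by DESeq2 (log2 fold change 0.49, adjusted p = 0.000479) but not by edgeR (adjusted p = 0.0547). SPINT1 averaged 162.9 ± 18.2 CPM in siETV4 libraries and 217.5 ± 23.6 CPM in siNC libraries (SD, n = 4 each), without overlap. Its log2 fold change was -0.42 (adjusted p = 0.192, edgeR), and it was called lower without siNC replicate 4 (adjusted p = 0.0121, edgeR). Both were named after their values were seen. SPINT2, which inhibits matriptase, averaged 375.8 ± 32.9 CPM in siETV4 libraries and 387.3 ± 52.7 CPM in siNC libraries (SD, n = 4 each; adjusted p = 0.876, edgeR). The cystatin CSTB averaged 122.8 ± 9.35 CPM in siETV4 libraries and 120.1 ± 15.6 CPM in siNC libraries (SD, n = 4 each; adjusted p = 0.911, edgeR). The other SPINK genes were nearly silent: of 9, 8 were at 0 counts in every library and SPINK1 had 7 counts in all. Without siNC replicate 4, 20 of the 86 pathway genes were called, 10 higher and 10 lower, against 16.9% of all genes.

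Of 14 tested proteases that act upstream in the cascade, edgeR called 0, with 2 at an unadjusted p under 0.05 and 0 called by DESeq2, against 12.6% and 1.22% of all genes, and the median log2 fold change was 0.19. Leaving out siNC replicate 4, edgeR called 1 higher and 1 lower. ST14 encodes matriptase, which can activate kallikrein zymogens, and averaged 382.4 ± 27.6 CPM in siETV4 libraries and 377.2 ± 38.2 CPM in siNC libraries (SD, n = 4 each; adjusted p = 0.938, edgeR). PLAU, the urokinase gene, averaged 150.1 ± 13.3 CPM in siETV4 libraries and 126.4 ± 8.16 CPM in siNC libraries (SD, n = 4 each), without overlap (log2 fold change 0.25, adjusted p = 0.343, edgeR), and was called with the GC and length offsets (log2 fold change 0.36, adjusted p = 0.0271, edgeR). Of 9 tested cathepsins and other desquamation enzymes, edgeR called 0, with 1 at an unadjusted p under 0.05 and 0 called by DESeq2, against the same shares, and the median log2 fold change was 0.14. CTSB, the lysosomal cathepsin B, averaged 713.3 ± 56.3 CPM in siETV4 libraries and 559.6 ± 43.7 CPM in siNC libraries (SD, n = 4 each), without overlap (log2 fold change 0.35, adjusted p = 0.192, edgeR). It was called higher with the offsets (log2 fold change 0.45, adjusted p = 0.00325, edgeR) and without siNC replicate 4 (log2 fold change 0.31, adjusted p = 0.0333, edgeR), where it was the 1 gene of its list called. CTSD, cathepsin D, averaged 1852.7 ± 129.0 CPM in siETV4 libraries and 1860.7 ± 194.5 CPM in siNC libraries (SD, n = 4 each).

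On the substrate side, the corneodesmosomal proteins that kallikreins cut were hardly transcribed. DSG1 and DSC1, the cadherins of corneodesmosomes, had 0 counts in every library, and CDSN, corneodesmosin, had 22 counts over all 8. Of the 9 tested desmosome genes edgeR called 0, with 2 at an unadjusted p under 0.05 and 0 called by DESeq2, against 12.6% and 1.22% of all genes, and the median log2 fold change was 0.04. Without siNC replicate 4, 5 of the 9 were called, against 16.9% of all genes: DSG2, DSG3 and PKP2 higher, PKP1 and PKP3 lower. In that fit the siRNA and the GC trend cannot be told apart. With the GC and length offsets on all 8 libraries, edgeR called 0 of the 9, against 1.75% of all genes. JUP, plakoglobin, averaged 1020.5 ± 86.2 CPM in siETV4 libraries and 1137.3 ± 129.8 CPM in siNC libraries (SD, n = 4 each; adjusted p = 0.529, edgeR), and PKP3, plakophilin 3, 366.5 ± 25.3 CPM in siETV4 libraries and 473.3 ± 62.3 CPM in siNC libraries (SD, n = 4 each; log2 fold change -0.37, adjusted p = 0.24, edgeR). PKP3 without siNC replicate 4 had an adjusted p under the threshold (log2 fold change -0.46, adjusted p = 0.00882, edgeR). With the offsets its log2 fold change was -0.19 (adjusted p = 0.0622, edgeR). With both the offsets and that omission it was -0.19 (adjusted p = 0.0442, edgeR).

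Of 7 tested signalling and antimicrobial targets of kallikreins, edgeR called 0, with 1 at an unadjusted p under 0.05 and 0 called by DESeq2, against 12.6% and 1.22% of all genes, and the median log2 fold change was 0.10. The fit without siNC replicate 4 called 1, IL1A, higher. F2RL1, which encodes PAR2 and was named for that role, averaged 52.9 ± 3.89 CPM in siETV4 libraries and 50.3 ± 5.0 CPM in siNC libraries (SD, n = 4 each; adjusted p = 0.773, edgeR). The interleukin-1 family member IL18 averaged 68.2 ± 4.02 CPM in siETV4 libraries and 60.6 ± 5.5 CPM in siNC libraries (SD, n = 4 each), and IL1B averaged 51.6 ± 1.12 CPM in siETV4 libraries and 54.6 ± 5.72 CPM in siNC libraries (SD, n = 4 each). CAMP, the gene of the cathelicidin that KLK5 and KLK7 process in skin, had 0 counts in every library.

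The genes of the granular layer, where kallikreins and LEKTI are made in skin, were partly silent in these cells. Of 33 such genes in the table, 17 were tested, 6 were at 0 counts in every library, LORICRIN and KRT2 among them, and KRT1 had between 0 and 4 counts. Among the 17 edgeR called 0, with 4 at an unadjusted p under 0.05 and 0 called by DESeq2, against 12.6% and 1.22% of all genes, and the median log2 fold change was -0.06. Leaving out siNC replicate 4, edgeR called 1 higher (SCEL) and 2 lower (KRT10 and EVPL), against 16.9% of all genes. PPL, periplakin, averaged 215.8 ± 28.4 CPM in siETV4 libraries and 259.2 ± 19.3 CPM in siNC libraries (SD, n = 4 each; log2 fold change -0.26, adjusted p = 0.362, edgeR). DMKN, dermokine, averaged 82.7 ± 12.0 CPM in siETV4 libraries and 88.7 ± 16.1 CPM in siNC libraries (SD, n = 4 each; log2 fold change -0.10, adjusted p = 0.767, edgeR). Of 16 tested transcription factors of keratinocyte differentiation, edgeR called 0, with 5 at an unadjusted p under 0.05, and DESeq2 called 1, against 12.6% and 1.22% of all genes, and the median log2 fold change was -0.06. The fit without siNC replicate 4 called 3 lower and 0 higher, and with the GC and length offsets 1 was called lower. The gene that DESeq2 called was RXRA, the retinoid X receptor, which averaged 316.6 ± 21.4 CPM in siETV4 libraries and 439.7 ± 35.1 CPM in siNC libraries (SD, n = 4 each; adjusted p = 0.0659 with edgeR and 0.0052 with DESeq2) and was named after its values were seen. It was also called lower without siNC replicate 4 (log2 fold change -0.52, adjusted p = 0.00584, edgeR) and with the offsets (log2 fold change -0.31, adjusted p = 0.00833, edgeR). CEBPB averaged 118.1 ± 2.82 CPM in siETV4 libraries and 118.9 ± 13.5 CPM in siNC libraries (SD, n = 4 each; adjusted p = 0.972, edgeR).

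Among the 8 keratinocyte markers 1 rose and 0 fell, KRT17, a keratin of wounded and hyperproliferative epidermis, at 406.5 ± 46.1 CPM in siETV4 libraries and 209.9 ± 26.1 CPM in siNC libraries (SD, n = 4 each; log2 fold change 0.95, SE 0.11, adjusted p = 0.00636, edgeR). With the replicate number as a block the adjusted p of KRT17 was 0.0562 (edgeR), over the threshold. The basal keratins KRT5 and KRT14 had log2 fold changes of -0.19 (adjusted p = 0.404, edgeR) and -0.03 (adjusted p = 0.901, edgeR). The summed level of the fibroblast markers was 4.16 to 5.34 CPM in siETV4 libraries and 3.45 to 6.44 CPM in siNC libraries, that of the melanocyte markers 1.27 to 2.02 CPM in siETV4 libraries and 1.33 to 2.29 CPM in siNC libraries, and that of the leukocyte markers, mostly CD68, 22.0 to 24.4 CPM in siETV4 libraries and 16.6 to 24.3 CPM in siNC libraries. The endothelial markers, mostly CDH5, summed to 15.2 to 21.9 CPM in siETV4 libraries and 14.0 to 18.4 CPM in siNC libraries. The most abundant tested genes of these lists were COL1A1 (3.47 ± 0.485 CPM in siETV4 libraries and 4.24 ± 1.29 CPM in siNC libraries), COL3A1 (0.635 ± 0.197 CPM in siETV4 libraries and 0.431 ± 0.206 CPM in siNC libraries) and PMEL (1.59 ± 0.357 CPM in siETV4 libraries and 1.72 ± 0.46 CPM in siNC libraries), and, for leukocytes and endothelial cells, CD68 (22.5 ± 1.1 CPM in siETV4 libraries and 20.2 ± 3.21 CPM in siNC libraries) and CDH5 (18.5 ± 2.65 CPM in siETV4 libraries and 14.8 ± 1.77 CPM in siNC libraries; SD, n = 4 each). CD14 and VWF were nearer to 0, at 0.375 and 0.753 CPM in siETV4 libraries and 0.603 and 1.07 CPM in siNC libraries. Of these 4 lists, 3 fibroblast, 1 melanocyte, 2 leukocyte and 2 endothelial genes were tested. None of them was called by edgeR or DESeq2, and 2 had an unadjusted p under 0.05 (edgeR), CDH5 and the fibroblast gene DCN, against 12.6% of all genes.

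DCN, decorin, was named after its values were seen. It stood at 0.937, 0.345, 0.746 and 0.603 CPM in siETV4 libraries, against 0.195, 0.238, 0.126 and 0.0242 CPM in siNC libraries, without overlap and at 1 to 39 counts a library. Its log2 fold change was 2.17 (SE 0.58), with an adjusted p of 0.203 with edgeR and 0.0501 with DESeq2, and without siNC replicate 4 it was called higher (log2 fold change 1.81, adjusted p = 0.044, edgeR). The part of these markers in the values of the kallikreins and SPINK5 was not tested.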

How the data were processed

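RNA was measured in 8 libraries, 4 siETV4 and 4 siNC, grouped by their titles. The authors deposited raw read counts per gene symbol and FPKM values for 34415 symbols. The deposited FPKM values equal the counts divided by the library total and a fixed gene length (relative tolerance 1e-06, 20584 of 20585 genes above 0). The build hg38 and R 3.2.0 come from the submitters' processing notes, and the sources used here do not give the aligner, counting tool or annotation.

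The counts were analysed with edgeR 4.0.16 in R 4.3.3: filterByExpr (minimum count 10) kept 13572 genes, libraries were scaled by TMM, and the siRNA was the only term. P-values of the quasi-likelihood test were adjusted over all tested genes by Benjamini-Hochberg, with calls at an adjusted p under 0.05. Alternatives were DESeq2 1.42.0, RLE factors, library size alone, other filters, limma-trend (limma 3.58.1) on log2(FPKM + 1) or log2(FPKM + 0.1) with a filter of 0.5 FPKM or none, GC and length offsets (splines with 5 degrees of freedom, for the 12470 tested genes, 91.9%, with values from GENCODE v29 and the FPKM), the replicate number as a block, and each library left out. The offsets without siNC replicate 4 and the leave-one-out ratios were chosen after seeing the data. Of these fits, only the edgeR fit with the siRNA as its only term was tested on simulated counts, which held no GC trend.

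The members and lists were chosen with earlier results of these data known, so no test over a list is given. By a rule, named are all members, ETV4, each list's called genes (at most 4, by p) or, with fewer than 2 called, its 2 most abundant tested genes, the counted genes in and beside the cluster and beside SPINK5, and the 3 genes most like each member. Other named genes were chosen for their role, their 0 or low counts, or after their values were seen. A gene that this rule takes from the transcription factor list is not reported here. Any pair of libraries correlated at 0.971 to 0.985 (Pearson, log2 CPM) and differed by at least 8.6 times the chi-square expected from counting (per degree of freedom), so no library repeated another. In the libraries 1 CPM is 33.6 to 41.6 counts, and limits from counts cover counting error only.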

Additional observations from a re-analysis of the deposited data

Results flagged for a closer look

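Among 18 groups of 4 libraries (9 genes in siETV4 and in siNC), 2 held a library far from the other 3 by Dixon's test at its critical value for groups of 4, where chance flags about 1 in 20 groups. KLK5 stood at 322.1 CPM in siETV4 replicate 2, against 261.3 to 269.8 CPM in the other siETV4 libraries, a gap of 0.86 of the group's range. KLK6 stood at 22.6 CPM in the same library, against 16.4 to 17.3 CPM in the other siETV4 libraries, a gap of 0.853 of the range. That library is the siETV4 library with the most positive GC trend, 0.21, and the part of that trend in these values was not tested.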

How the results depend on the processing

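Of the 7 tested members, 0 were called by edgeR and 1 by DESeq2, with the GC and length offsets, and with the offsets without siNC replicate 4; leaving out 1 library gave 0 to 3, the 3 without siNC replicate 4. Of the listed pathway genes, 1 was called by edgeR, 2 with RLE factors, library size alone or no filter, 3 with DESeq2, 5 with offsets, 16 with offsets without siNC replicate 4, 4 with FPKM plus 1 or plus 0.1, 3 with FPKM plus 1 unfiltered, and 0 to 20 with 1 library left out. Over all genes 32 were called (16 higher, 16 lower), 26 with library size alone (16 higher, 10 lower), 54 with no filter, 167 with DESeq2, 218 with offsets, 821 with offsets without siNC replicate 4, 59 with FPKM plus 1 or plus 0.1, and 9 to 2327 with 1 library left out. The labels number replicates in both groups. The deviations of same-numbered libraries had correlations of -0.08, 0.27, -0.12 and -0.17, and 2 of 8 libraries were closest to their own number. Pairing by number was therefore not seen, but the check cannot exclude it. The labels do not say whether same-numbered cultures shared a batch. With the replicate block, 0 members, 0 listed pathway genes and 4 genes overall were called, and PI3 (log2 fold change 0.99, adjusted p = 0.127) and KRT17 (0.96, adjusted p = 0.0562) lost their edgeR calls. The sign of the log2 fold change turned 54 times over 11 named genes that edgeR did not call. With offsets it was 0.03 for KLK5, 0.08 for SPINT2, 0.14 for CTSD, -0.09 for IL18, 0.16 for CEBPB, 0.10 for KRT14 and 0.02 for CTU1, and with offsets without siNC replicate 4 it was 0.04, 0.09, 0.16, -0.16, 0.18, 0.10 and 0.05, and 0.08 for PMEL. With library size alone it was 0.04 for CTSD and CEBPB and 0.01 for KRT14, with RLE factors or DESeq2 0.01 for CTSD, and with FPKM 0.01 for SPINT2 and KRT14 and 0.04 for CTSD and CEBPB. With 1 library left out it ranged over -0.22 to 0.26 for KLK1, -0.11 to 0.01 for SPINT2, -0.06 to 0.07 for CSTB, -0.05 to 0.06 for ST14, -0.08 to 0.04 for CTSD, -0.09 to 0.03 for CEBPB, -0.11 to 0.02 for KRT14 and -0.25 to 0.06 for PMEL. The causes were not tested. KLK13 and KLK14 had too few counts to be tested.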
